A study of Mus musculus with 8 samples.

Results

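The cytosolic ribosomal protein genes encode the protein parts of the ribosome that translates nuclear mRNAs. Genes were taken by symbol from the annotation of the array's probes, as every symbol that starts with Rpl or Rps and a number, together with Rplp0, Rplp1, Rplp2 and Rpsa, and pseudogenes, binding proteins and the Rps6k kinases were left out. This gave 65 of the 16593 genes with a symbol on the array, represented by 83 of its 25697 probes. By their symbols alone, 37 of the 65 genes were counted to the large (60S) subunit, 3 to its stalk (Rplp0, Rplp1 and Rplp2) and 25 to the small (40S) subunit.

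A ribosome holds a single copy of most of its proteins, so cells make them in matched amounts, and their mRNAs are among the most abundant of a hepatocyte. These mRNAs begin with a terminal oligopyrimidine (TOP) tract, through which mTORC1 and the RNA-binding protein Larp1 set how much of each mRNA is translated. In liver, ribosome number follows feeding and growth, and because their mRNA is assumed to vary little, several of these genes (Rplp0 and Rpl13a among them) are in common use as reference genes for quantitative PCR.

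The samples were livers of 4 TgC6hp55 mice and of 4 wild type (wt) mice, all C57BL/6J males aged 21 weeks, each measured on 1 Illumina bead array. TgC6hp55 mice carry human TNFR1 under the promoter of the Collagen VI a1 chain, which is active in mesenchymal cells, with a human growth hormone minigene downstream, and wt mice carry no transgene. The promoter is not one of hepatocytes, the main cells of the tissue measured here. The study made lines from separate founders and centred its main analysis on the first of them. The labels do not say which line gave these livers. All values below are log2 signals after background correction and quantile normalization. The signal of a probe depends on its sequence, so signals are compared between livers and not between genes.

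Mean deposited intensity per array was 112 to 224 in the TgC6hp55 livers and 167 to 179 in the wt livers, and 10541 to 12011 probes were detected in the TgC6hp55 livers and 11005 to 11269 in the wt livers. Hepatocyte markers were present in every liver (mean log2 signal over 7 tested markers of 11.64 to 11.77 in TgC6hp55 livers and 11.68 to 11.73 in wt livers), and Tat was not detected on enough arrays. Over all 8540 features tested, 938 (11%) differed at an adjusted p under 0.05 by limma. Of these, 553 (6.48%) were higher and 385 (4.51%) were lower in TgC6hp55 livers.

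Of the 65 genes, 55 were detected on at least 4 of the 8 arrays, and 54 of them on all 8. The other 10 genes were Rpl14, Rpsa, Rpl3l, Rpl17, Rpl22l1, Rpl39l, Rpl6, Rplp2, Rps23 and Rps23rg1. Their 11 probes had deposited intensities of -8 to 12 and were not well above background on enough arrays of either group. They include Rpsa, the laminin receptor and a 40S protein, and the ribosome parts Rpl14, Rpl17, Rpl6, Rplp2 and Rps23. A ribosomal protein that hepatocytes need cannot be read as missing from a dim probe, so only the 55 detected genes are described further.

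Most ribosomal protein genes had a slightly lower signal in TgC6hp55 livers, by amounts that for single genes mostly lay within the error. Of the 55 genes, 2 (3.64%) fell and 0 rose at an adjusted p under 0.05, against 4.51% and 6.48% of all features, so the share of genes that fell was no larger than the background. The 2 genes were Rpl12 and Rpl28, both of the 60S subunit. At an unadjusted p under 0.05, 937 of all 8540 features (11%) were lower and 1151 were higher. Among the 55 genes, 10 (18.2%) were lower and 0 were higher. The log2 fold change was negative for 46 genes and positive for 9, with a median of -0.12 (a fold of 0.919), where the median over all features was -0.01. It ran from -0.48 for Rpl12 to 0.12 for Rpl34. The 95% intervals of the members all lay between -0.70 and 0.36. Over the alternatives given in the closing section, 42 genes were negative in each and 13 took both signs. In bulk liver, fewer cells of a type and less RNA per cell cannot be told apart, and the p-values measure the spread between these livers.

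**Figure D1:**
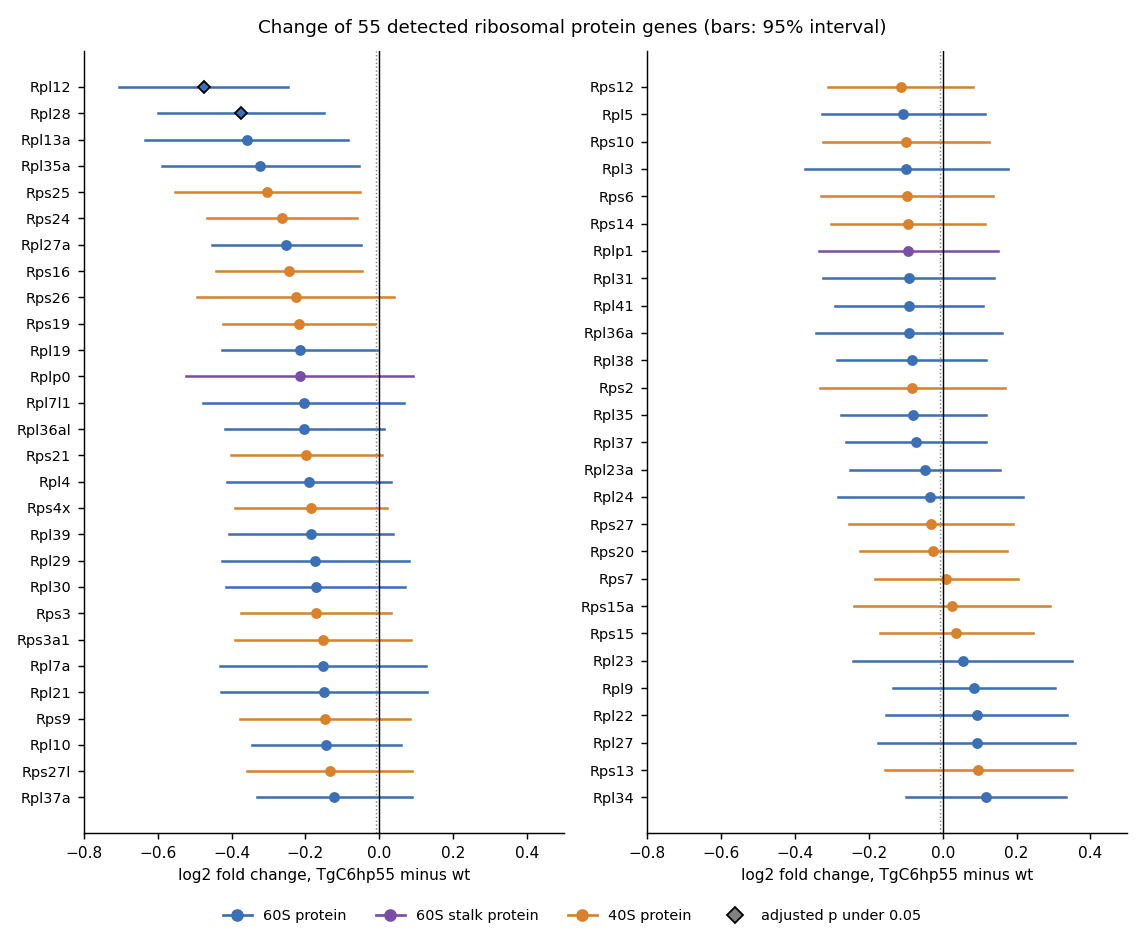
Log2 fold change (TgC6hp55 minus wt, x axis) of each of the 55 detected ribosomal protein genes, with bars for the 95% interval of the limma fit and colours for the subunit. The dotted line marks the median of all features, and diamonds mark Rpl12 and Rpl28, the 2 genes at an adjusted p under 0.05. Most points lie left of 0, and 10 intervals lie wholly below it.

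Rpl12 had the lowest fold change of the 55 genes. Its protein sits at the base of the stalk, where elongation factors bind. Its log2 signal was 10.35, 10.12, 10.01 and 10.16 in the TgC6hp55 livers, against 10.51, 10.59, 10.69 and 10.74 in the wt livers. Every TgC6hp55 liver lay below every wt liver. The log2 fold change was -0.48 (SE 0.10, adjusted p = 0.0125 by limma), a signal lower by 28.1%. With each array scaled by the median of all its probes the adjusted p was 0.0812, and the fold change was then -0.60.

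Rpl28 encodes a 60S protein that bacterial ribosomes lack. Its log2 signal was 11.28, 11.16, 11.16 and 11.34 in the TgC6hp55 livers, against 11.41, 11.63, 11.71 and 11.70 in the wt livers. The groups did not overlap, although TgC6hp55 liver 4 and wt liver 1 were close. The log2 fold change was -0.37 (SE 0.10, adjusted p = 0.0384 by limma), a signal lower by 22.9%. This call was lost when any of 6 livers was left out. Without TgC6hp55 liver 1, 2 or 3 the adjusted p was 0.0721, 0.0954 and 0.0840, and without wt liver 2, 3 or 4 it was 0.102, 0.0970 and 0.0973. It was 0.131 with median scaling over all probes, 0.0602 with the replicate number as a block and 0.0550 by the methods' t-test after Benjamini-Hochberg adjustment.

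**Figure D2:**
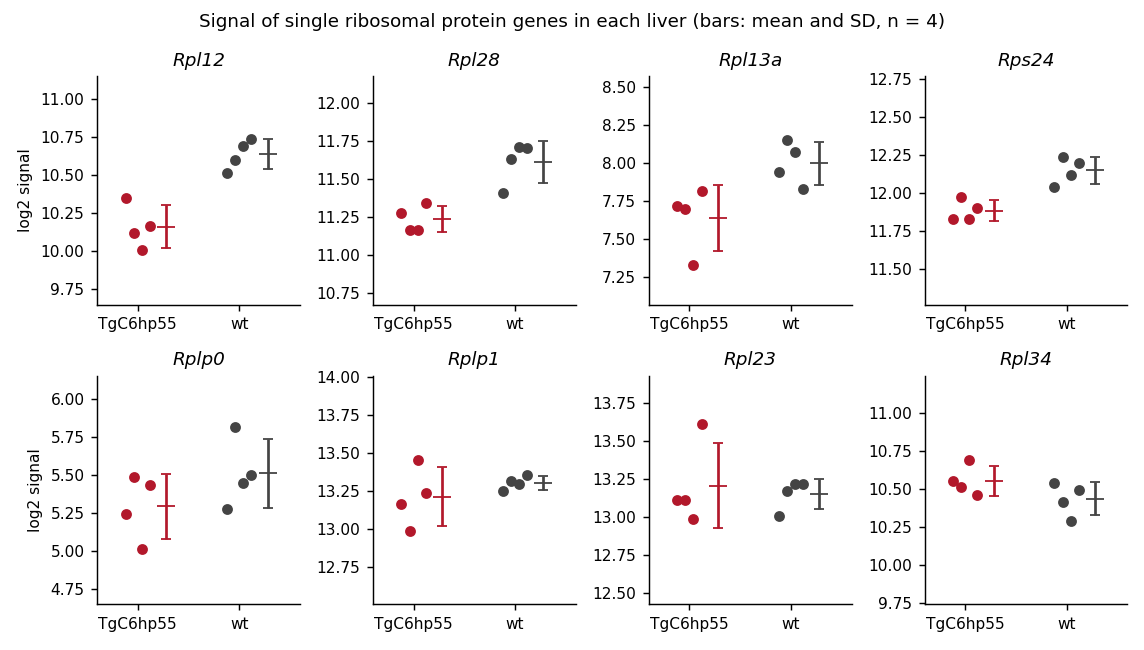
Log2 signal (y axis, the same span in every panel) of 8 ribosomal protein genes in the 4 TgC6hp55 livers (left, red) and the 4 wt livers (right, grey), with mean and SD beside the points. Rpl12, Rpl28, Rpl13a and Rps24 do not overlap between the groups, and Rplp0, Rplp1, Rpl23 and Rpl34 do.

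The start regions of 4 members are shown because the TOP tract and the promoter elements near it are what these genes are known to share. Rpl12 and Rpl28 are the 2 genes that fell, and Rpl38 and Rpl41 are members of high signal that did not pass the test. Each run holds 60 bases before and 30 bases from the annotated start on, read 5′ to 3′ along the gene's strand, from RefSeq on GRCm38.p6. Capitals mark any match to CTCTTTC or CTTTCC on the gene's strand, or to CCGGAAG (a core of the kind that Ets factors bind) or GCCATNTT (a core of the kind that YY1 binds) on either strand. The regions are chr2:32961652-32961741 (+) for Rpl12, chr7:4792905-4792994 (+) for Rpl28, chr11:114668520-114668609 (+) for Rpl38 and chr10:128549139-128549228 (-) for Rpl41.
Rpl12: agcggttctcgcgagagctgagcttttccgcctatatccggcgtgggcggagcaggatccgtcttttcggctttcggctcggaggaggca
Rpl28: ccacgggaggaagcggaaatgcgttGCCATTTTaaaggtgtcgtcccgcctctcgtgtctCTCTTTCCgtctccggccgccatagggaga
Rpl38: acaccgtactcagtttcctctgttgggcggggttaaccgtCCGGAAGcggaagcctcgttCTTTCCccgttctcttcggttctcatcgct
Rpl41: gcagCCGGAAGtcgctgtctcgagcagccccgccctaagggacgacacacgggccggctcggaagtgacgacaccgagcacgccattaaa

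The match to CTCTTTC in Rpl28 and that to CTTTCC in Rpl38 begin at the annotated start. The Rpl41 window holds only CCGGAAG, and the Rpl12 window holds none of the motifs searched. From its annotated start on, Rpl12 reads gtcttttcgg, which holds a run of pyrimidines that the letters searched do not match. A window without a match is therefore not shown to lack a TOP tract. Start regions were given for 56 of the 65 genes. Within 50 bases either side of the start, CTCTTTC stood on the gene's strand in 10 of the 56 (17.9%), against 1.62% of all 27025 genes, and CTTTCC, which can overlap it, in 16 (28.6%), against 5.43%. Within the 300 bases given, CCGGAAG stood on either strand in 22 (39.3%), against 9.93%, and GCCATNTT in 12 (21.4%), against 6.96%. The motifs were picked after the sequences had been read, and a match is a description of letters only.

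Among the other 29 detected genes of the 60S subunit, none passed the test. Over the 31 genes without the stalk, 26 fold changes were negative, the median was -0.12, and in 6 genes (19.4%) every TgC6hp55 liver lay below every wt liver. Such a separation was found for 645 of all features (7.55%). Besides Rpl12 and Rpl28, the 6 were Rpl13a, Rpl35a, Rpl27a and Rpl19. Rpl35a and Rpl19 were singled out after their values were seen.

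Rpl13a, a 60S protein that also takes part in a complex that silences inflammatory mRNAs in human monocytes, had log2 signals of 7.72, 7.70, 7.33 and 7.82 in TgC6hp55 livers, against 7.94, 8.15, 8.07 and 7.83 in wt livers. TgC6hp55 liver 3 was the lowest, and TgC6hp55 liver 4 and wt liver 4 nearly met. The log2 fold change was -0.36 (SE 0.13, adjusted p = 0.0961 by limma). Rpl35a, which is mutated in some patients with Diamond-Blackfan anaemia, a failure of red cell production, had log2 signals of 10.44, 10.79, 10.43 and 10.73 in TgC6hp55 livers, against 10.80, 10.84, 10.89 and 11.15 in wt livers. The log2 fold change was -0.32 (adjusted p = 0.126), and TgC6hp55 liver 2 was close to wt liver 1.

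Rpl27a had a log2 fold change of -0.25 (adjusted p = 0.114), with log2 signals of 7.86, 7.90, 7.67 and 7.83 in TgC6hp55 livers, against 8.12, 8.05, 8.07 and 8.03 in wt livers. Here the wt livers lay within a narrow range, and TgC6hp55 liver 3 was again the lowest. Rpl19, another 60S protein, had a log2 fold change of -0.22 (adjusted p = 0.192), and its log2 signal averaged 9.07 ± 0.09 in TgC6hp55 livers and 9.29 ± 0.09 in wt livers (SD, n = 4 each). TgC6hp55 liver 2, at 9.17, and wt liver 1, at 9.18, were closest.

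At the other end of the 60S genes, fold changes were positive for Rpl23, Rpl9, Rpl22, Rpl27 and Rpl34. Rpl34 had log2 signals of 10.55, 10.51, 10.69 and 10.46 in TgC6hp55 livers, against 10.54, 10.41, 10.29 and 10.50 in wt livers. The groups overlapped, with a log2 fold change of 0.12 (95% interval -0.10 to 0.33). Under median scaling over all probes, all 55 genes had negative fold changes, so that the sign of these 5 genes rests on the scaling. Rpl23, which besides its place in the 60S subunit can bind Mdm2, the inhibitor of p53, had 13.11, 13.11, 12.98 and 13.61 in TgC6hp55 livers, against 13.01, 13.17, 13.21 and 13.21 in wt livers. TgC6hp55 liver 4 stood above all other livers. Rpl22, the 60S protein that carries the tag in RiboTag mice, was at 0.09 (95% interval -0.15 to 0.34).

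Rpl38, whose loss in mice alters the skeleton, and Rpl41, which encodes a very short peptide of the 60S subunit, were among the 5 members of highest signal. Rpl38 had a log2 fold change of -0.08 (95% interval -0.29 to 0.12) and Rpl41 of -0.09 (95% interval -0.29 to 0.11). For both genes the groups overlapped. Rpl21, a 60S protein, was among the 5 dimmest members and was detected on 3 TgC6hp55 and 4 wt arrays. Its log2 fold change was -0.15 (95% interval -0.43 to 0.13).

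The stalk is the flexible arm of the 60S subunit that recruits the GTPase factors of elongation. Rplp0, its scaffold and a common PCR reference, had log2 signals of 5.24, 5.49, 5.02 and 5.44 in TgC6hp55 livers, against 5.28, 5.82, 5.45 and 5.50 in wt livers. The groups overlapped, the probe was dim, and the log2 fold change was -0.22 (95% interval -0.52 to 0.09). Rplp1, the member of highest signal, had 13.17, 12.98, 13.45 and 13.24 in TgC6hp55 livers, against 13.25, 13.32, 13.29 and 13.36 in wt livers. Its fold change was -0.09 (95% interval -0.34 to 0.15), and the TgC6hp55 livers spread over a wider range (SD 0.19) than the wt livers (SD 0.05).

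In the 40S subunit, which reads the mRNA, 0 of the 22 detected genes passed the test by limma and 4 were lower at an unadjusted p under 0.05, where 11% of all features were. The median log2 fold change was -0.12, 18 were negative, and 5 (22.7%) did not overlap between the groups, all lower in TgC6hp55 livers, against 7.55% of all features. These were Rps24, Rps16, Rps19, Rps21 and Rps3, named after their values were seen. Rps25, at -0.30, had the most negative fold change of the 40S genes but overlapped between the groups (adjusted p = 0.124).

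Rps24, a 40S protein mutated in some patients with Diamond-Blackfan anaemia, had log2 signals of 11.83, 11.98, 11.83 and 11.90 in TgC6hp55 livers, against 12.04, 12.24, 12.12 and 12.20 in wt livers. The log2 fold change was -0.26 (SE 0.09, adjusted p = 0.0984 by limma). Rps16, which touches the tRNA in the ribosome's P site, had 10.62, 10.48, 10.56 and 10.60 in TgC6hp55 livers, against 10.85, 10.72, 10.88 and 10.80 in wt livers, a log2 fold change of -0.24 (SE 0.09, adjusted p = 0.115). In both genes the livers of a group lay close together, and the gap between groups was small.

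Rps19, the gene most often mutated in Diamond-Blackfan anaemia, had a log2 fold change of -0.22 (adjusted p = 0.177), Rps21 of -0.20 (adjusted p = 0.220) and Rps3, which lines the entry of the mRNA channel, of -0.17 (adjusted p = 0.290). Rps6, the 40S protein that the S6 kinases phosphorylate when mTORC1 is active, had a log2 fold change of -0.10 (95% interval -0.33 to 0.14). Rps20, among the 5 members of highest signal, was at -0.03 (95% interval -0.22 to 0.17), and Rps7 was at 0.01 (95% interval -0.18 to 0.20). Rps15a, dim on these arrays, was at 0.03 (95% interval -0.24 to 0.29).

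Over both subunits, 11 genes (20%) did not overlap between the groups and were lower in TgC6hp55 livers, against 7.55% of all features, and 0 were higher, against 9.2%. High signals are measured with less error, so the same counts were taken over features with a mean log2 signal over 10. There 8 of 41 members (19.5%) were apart and lower, against 11.6% of 783 features, and 2 members (4.88%) passed the test, against 6.51%. The median fold change was -0.10 over the 41 members and -0.002 over the 783 features.

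**Figure D3:**
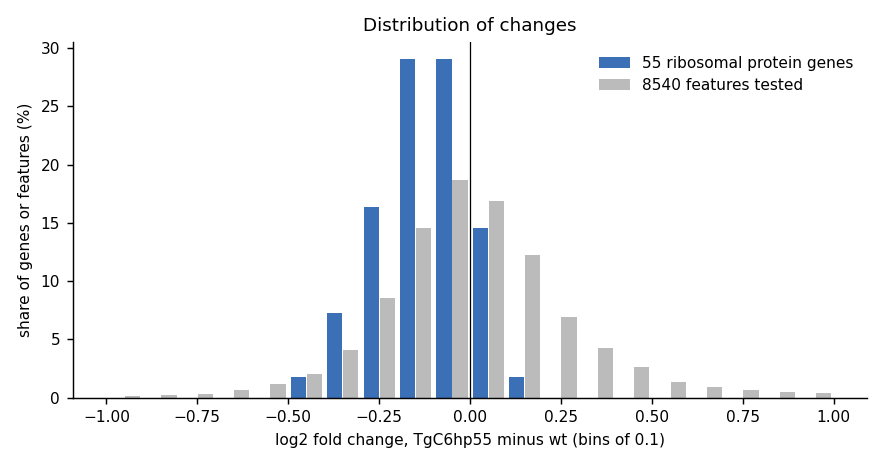
Share of the 55 ribosomal protein genes (blue) and of the 8540 features tested (grey) in each bin of log2 fold change (TgC6hp55 minus wt, bins of 0.1). Of all features, 89 lie at or below -1 and 130 above 1 and are not drawn. The members lie in a narrow range with a median of -0.12, left of the median of all features at -0.01.

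The members varied between livers of a group about as little as other features of high signal. The SD within groups had a median of 0.11 over the members, against 0.18 over all features and 0.12 over features with a mean log2 signal over 10. Within the groups the members did not move closely together from liver to liver. The median correlation of their deviations from the group means over the 8 livers was 0.09 between pairs of genes, which share arrays and normalization. The number of members below the lowest wt liver was 26, 29, 35 and 25 in TgC6hp55 livers 1 to 4, and the highest count was in liver 3. This count was not taken over all features, so it has no background to be read against.

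The mean log2 signal over the 55 genes was 10.54, 10.52, 10.46 and 10.58 in the TgC6hp55 livers, against 10.63, 10.63, 10.66 and 10.69 in the wt livers. The groups did not overlap, and the difference was -0.13, where the mean over all features differed by 0.01. The 33 genes of the 60S subunit with its stalk differed by -0.13 and the 22 genes of the 40S subunit by -0.12. TgC6hp55 liver 3, which had the lowest mean, also had the highest mean deposited intensity (224), and TgC6hp55 liver 4, with the highest mean of its group, had the lowest intensity (112). The part of array brightness in the difference was not tested.

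The size of this difference depended on the scaling. With each array scaled by the median of its detected probes, the means were 10.50, 10.43, 10.36 and 10.53 in TgC6hp55 livers, against 10.68, 10.65, 10.67 and 10.68 in wt livers, a difference of -0.22. With the median of all probes they were 10.48, 10.53, 10.65 and 10.09 in TgC6hp55 livers, against 10.66, 10.71, 10.72 and 10.67 in wt livers, a difference of -0.25, and TgC6hp55 liver 4 then stood far below the other livers. Cyclic loess gave -0.14 and the authors' cubic spline values -0.12. In all 6 scalings every TgC6hp55 liver lay below every wt liver. By the median of detected probes, a scaling chosen after seeing the data, 6 of the 55 members fell, where 4.82% of all features did. These were Rpl12, Rpl28, Rpl35a, Rps16, Rps24 and Rps25. By the median of all probes 0 members passed, where 1.81% of all features fell.

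**Figure D4:**
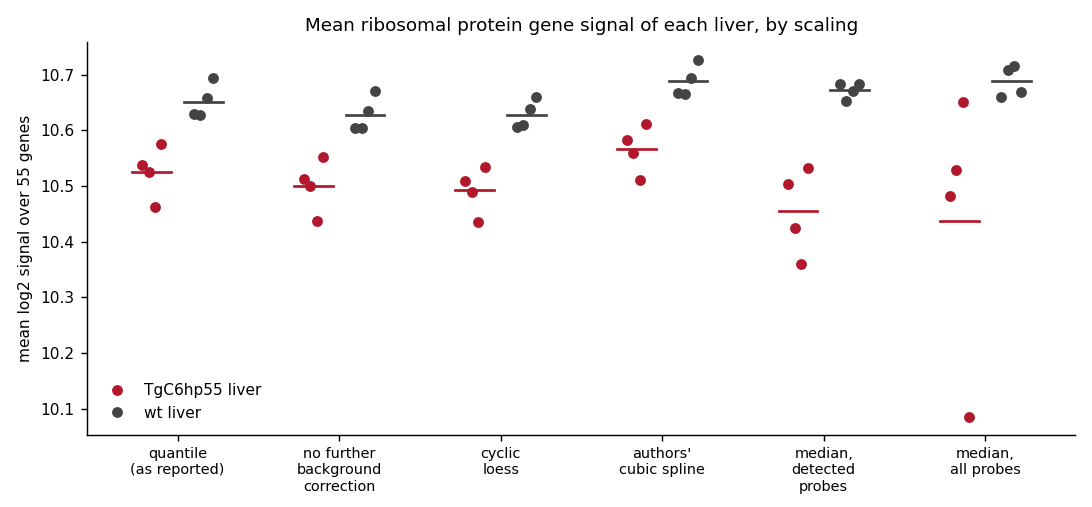
Mean log2 signal over the 55 ribosomal protein genes (y axis) in each TgC6hp55 liver (left, red) and wt liver (right, grey) under 6 scalings of the arrays (x axis), with horizontal lines for group means. The TgC6hp55 livers lie below the wt livers in each, and the gap runs from -0.12 with the authors' cubic spline to -0.25 with median scaling over all probes.

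Of the detected genes, 10 had more than 1 detected probe. In 3 of these, Rpl21, Rpl23 and Rpl38, the probes differed in sign, and none of them passed. For Rpl23 the 3 detected probes gave 0.05, -0.04 and -0.19. Of the 66 detected probes, 55 had a negative fold change and 2 passed, those of Rpl12 and Rpl28, over 11100 probes of which 1154 passed. Ribosomal protein genes have many near-identical processed copies in the genome, and since the probe sequences were not used here, signal from such copies cannot be told apart from that of the gene.

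There are 6 members named as -like copies of another ribosomal protein gene, of which 3 were detected. Rpl36al, a close copy of Rpl36a, had a log2 fold change of -0.20 (95% interval -0.42 to 0.01). Rps27l, a relative of Rps27 that p53 induces in human cells, was at -0.13 (95% interval -0.36 to 0.09), and Rpl7l1, a relative of Rpl7, at -0.20 (95% interval -0.48 to 0.07). The parent gene Rpl36a was at -0.09 and Rps27 at -0.03. Rpl3l, the copy used in heart and skeletal muscle, Rpl39l, the copy used in testis, and Rpl22l1 were not detected. Fau, a 40S protein made as a fusion with a ubiquitin-like protein and outside the symbol rule, was at 0.11 (95% interval -0.14 to 0.37), with log2 signals of 11.20, 11.16, 11.08 and 11.44 in TgC6hp55 livers, against 10.95, 11.11, 11.06 and 11.32 in wt livers. The groups overlapped, and with median scaling over all probes the fold change was -0.03.

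Ribosome production and translation need further groups of genes, which are given as counts and medians beside the 4.51% of all features that were lower. For the unadjusted counts here and below, 937 of all 8540 features (11%) were lower and 1151 were higher. Of 70 mitochondrial ribosomal protein genes, 1 fell and 0 rose (8 lower and 2 higher at an unadjusted p under 0.05, median -0.06). It was Mrps18b, at -0.37 (adjusted p = 0.0289). Of 68 ribosome assembly factors, 3 fell and 0 rose (11 lower and 1 higher at an unadjusted p under 0.05, median -0.10). These 3 are known, from yeast and human cells, as parts of the machinery that processes the RNA of the 40S subunit. Wdr46 was at -0.58 (adjusted p = 0.0376), Heatr1 at -0.39 (adjusted p = 0.0462) and Noc4l at -0.38 (adjusted p = 0.0450). Of 9 genes of RNA polymerase I, which transcribes ribosomal RNA, 0 passed by limma (1 at an unadjusted p under 0.05), with a median of 0.02.

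These 4 calls were not held by every set of livers or every setting. Mrps18b had an adjusted p of 0.0509 to 0.102 without TgC6hp55 liver 1, 2 or 3 or wt liver 1, 2 or 4, and Wdr46 of 0.0799 to 0.110 without TgC6hp55 liver 2 or 3 or wt liver 1, 2 or 3. Heatr1 had 0.0684 to 0.123 without TgC6hp55 liver 1, 3 or 4 or wt liver 1, 2 or 4, and Noc4l had 0.0839 to 0.133 without TgC6hp55 liver 1, 2 or 3 or wt liver 1, 2 or 4. With median scaling over all probes the adjusted p was 0.234 for Mrps18b, 0.0617 for Wdr46, 0.216 for Heatr1 and 0.212 for Noc4l. With the replicate number as a block it was 0.0596 for Mrps18b, 0.0781 for Wdr46, 0.0535 for Heatr1 and 0.0585 for Noc4l. Where every detected probe of a gene had to pass, it was 0.175 for Mrps18b, 0.110 for Wdr46 and 0.129 for Noc4l. Over the 21 alternatives Mrps18b passed in 11, Wdr46 in 9, Heatr1 in 10 and Noc4l in 8.

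Among the factors that work on the ribosome, 0 of 33 initiation factors passed by limma (2 lower at an unadjusted p under 0.05, median -0.05) and 0 of 13 elongation and termination factors (3 lower at an unadjusted p under 0.05, median -0.05). Of 16 other mRNAs with a TOP tract, some of which are such factors, 0 passed (1 lower at an unadjusted p under 0.05), with a median of -0.07. Of 18 aminoacyl-tRNA synthetase genes, 1 fell and 0 rose (5 lower and 1 higher at an unadjusted p under 0.05, median -0.11). It was Eprs, which charges glutamate and proline tRNAs, with log2 signals of 5.81, 5.51, 5.33 and 5.60 in TgC6hp55 livers, against 6.64, 6.45, 6.11 and 6.21 in wt livers. The groups lay well apart, with a log2 fold change of -0.79 (SE 0.14, adjusted p = 0.00356).

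Of 18 genes of mTORC1 and of the control of TOP mRNA translation, 3 fell and 0 rose (4 lower and 3 higher at an unadjusted p under 0.05, median -0.06), and 9 fold changes were negative and 9 positive. Eif4ebp1, a 4E-BP that holds back cap-dependent initiation until mTORC1 phosphorylates it, had log2 signals of 9.06, 9.12, 9.04 and 9.12 in TgC6hp55 livers, against 9.47, 9.52, 9.63 and 9.55 in wt livers. Both groups were tight and apart, with a log2 fold change of -0.46 (SE 0.09, adjusted p = 0.00639). Eif4ebp3, its relative, was detected on 0 of 4 TgC6hp55 arrays and on 4 of 4 wt arrays. Its log2 signal averaged 4.25 in TgC6hp55 livers and 5.45 in wt livers, at least 1.83-fold lower in TgC6hp55 livers when signals under an array's lowest detected signal are set to that signal (adjusted p = 0.000285).

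Deptor, an inhibitor that binds mTOR, was at -0.38 (adjusted p = 0.0286). Without TgC6hp55 liver 2 or 3 or wt liver 1, 2 or 3 its adjusted p was 0.0674 to 0.0782. With median scaling over all probes the adjusted p was 0.114 for Eif4ebp1 and 0.216 for Deptor, and where every detected probe of a gene had to pass, that of Deptor was 0.317. Eif4ebp3 passed in all 21 alternatives. Of 7 tested targets of p53, which respond when ribosomal proteins are left unassembled, 0 passed by limma (2 higher at an unadjusted p under 0.05), with a median of 0.01. The p53 gene itself was not among the 7.

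**Figure D5:**
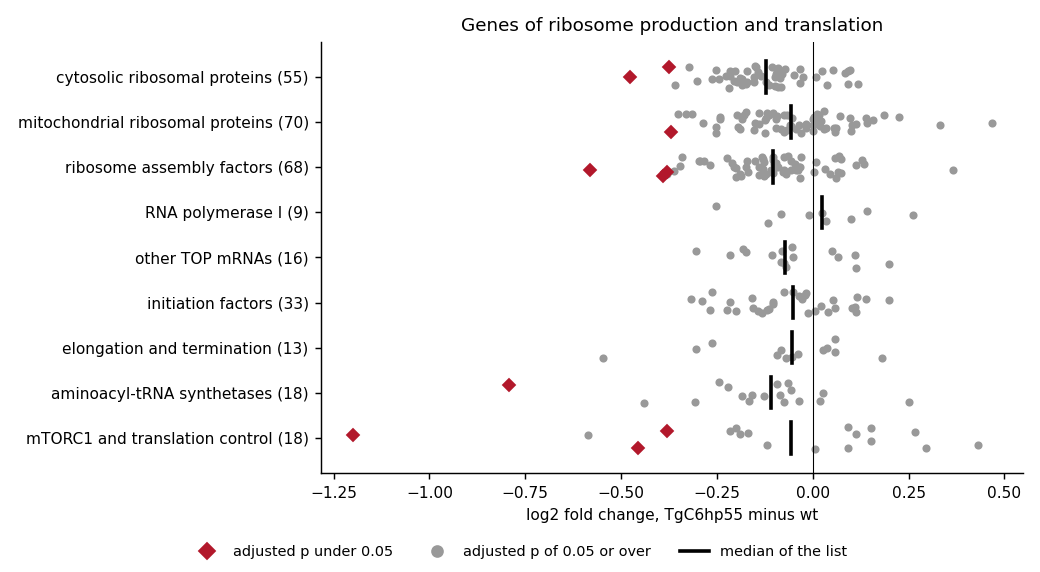
Log2 fold change (TgC6hp55 minus wt, x axis) of each tested gene in the 55 ribosomal protein genes and in 8 lists of ribosome production and translation, with the number of genes in brackets, a black bar for the median and red diamonds for an adjusted p under 0.05. Medians lie between -0.12 and 0.02, and the points furthest to the left are Eif4ebp3, drawn at its fitted value although its TgC6hp55 signals lie at background, and Eprs.

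Markers of several other liver cells had higher signals in TgC6hp55 livers. All 8 tested Kupffer cell markers had positive fold changes (median 0.96) and 4 rose, against 6.48% of all features. These were C1qb at 1.31 (adjusted p = 0.0354), C1qa at 1.20 (adjusted p = 0.0102), Adgre1 at 0.92 (adjusted p = 0.0324) and Marco at 0.73 (adjusted p = 0.0417), the last detected on 4 TgC6hp55 arrays and 1 wt array. Their mean over 8 markers was 7.01 to 7.66 in TgC6hp55 livers and 5.52 to 6.999 in wt livers, so that the groups nearly met, and Cd5l was not detected on enough arrays. The call for C1qb was lost without any of the 4 TgC6hp55 livers or wt liver 2 or 4 (adjusted p 0.0601 to 0.0894), for Adgre1 without TgC6hp55 liver 1, 2 or 3 or wt liver 2 or 4 (0.0546 to 0.0840), and for Marco without TgC6hp55 liver 1 or 3 or wt liver 1, 2 or 3 (0.0652 to 0.114). With median scaling over all probes the adjusted p was 0.0892 for C1qb, 0.144 for Adgre1 and 0.131 for Marco. With the replicate number as a block that of Marco was 0.0519, and where every detected probe had to pass that of Adgre1 was 0.202. By the methods' t-test all 4 calls were lost after Benjamini-Hochberg adjustment (0.0955 for C1qa to 0.174 for C1qb), and without a filter on dim probes that of C1qa had an adjusted p of 0.0529 and the others 0.113 to 0.132.

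Of 9 sinusoidal endothelial markers 2 rose, Fcgr2b at 0.69 (adjusted p = 0.0107) and Pecam1 at 0.48 (adjusted p = 0.0132), and all 9 were positive (median 0.41, means per liver of 7.16 to 7.35 in TgC6hp55 and 6.63 to 7.03 in wt livers). Kdr was not detected on enough arrays, and with median scaling over all probes the adjusted p was 0.229 for Fcgr2b and 0.299 for Pecam1. Where every detected probe had to pass it was 0.205 for Fcgr2b and 0.613 for Pecam1, and by the methods' t-test it was 0.0707 for Fcgr2b. Of 4 lymphocyte markers 1 rose, Coro1a at 0.90 (adjusted p = 0.00858), with a median of 0.39. Its adjusted p was 0.0762 by the methods' t-test and 0.290 where every detected probe had to pass. The mean over these 4 was 5.20 to 5.76 in TgC6hp55 livers and 4.71 to 5.15 in wt livers, and 9 of the 13 on the array, with Ptprc, Cd8a, Cd79a and Ms4a1 among them, were not detected on enough arrays. The mean of the cell division genes was 4.87 to 5.19 in TgC6hp55 livers and 4.69 to 5.25 in wt livers, and 0 of 4 passed by limma (0 at an unadjusted p under 0.05, median 0.15). These 4 of 11 on the array were dim, with a median log2 signal of 4.97. Top2a, Ccnb2, Ccna2, Cdk1, Aurka, Bub1 and Pcna were not detected on enough arrays.

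Of 7 stellate cell markers 0 passed (1 higher at an unadjusted p under 0.05, median 0.21), as did 0 of 2 cholangiocyte markers (0 at an unadjusted p under 0.05, median 0.01) and 0 of 7 hepatocyte markers (2 at an unadjusted p under 0.05, 1 in each direction, median 0.03). Col1a1, Col1a2, Hand2, Krt19 and Sox9 were not detected on enough arrays. The means were 6.89 to 7.16 in TgC6hp55 livers and 6.55 to 7.07 in wt livers for stellate cells, and 4.50 to 4.75 in TgC6hp55 livers and 4.53 to 4.77 in wt livers for cholangiocytes. Of 3 erythroid genes Alas2 fell, at -2.59 (adjusted p = 3.05e-05), and the globin genes Hba-a1 and Hbb-bt were at 0.65 and 0.22 without passing. The part of these other cells in the ribosomal protein values was not tested.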

How the data were processed

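Liver mRNA of 4 TgC6hp55 and 4 wt mice was measured on Illumina bead arrays, 1 per liver, and groups and replicate numbers came from the sample titles. The authors processed the arrays in GenomeStudio 2011.1, per the labels and the methods, and deposited an intensity (linear, rounded, not normalized between arrays, as low as -16 because a background had been subtracted) with a detection p-value beside each intensity. A second deposited table holds cubic spline normalized intensities with a median of 15 on every array. No genome build is given in the sources used here.

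Intensities were corrected by normexp through the detection p-values with an offset of 16, then quantile normalized as log2 values (neqc, limma 3.58.1, R 4.3.3). Probes with a detection p under 0.05 on at least 4 of 8 arrays were kept, 11100 in all. Of the 25697 probes, 23978 had 1 gene symbol in the platform annotation and 1719 had none. The probe with the highest mean stood for a gene, which gave 7882 genes and 658 unnamed probes. TgC6hp55 minus wt was fitted without covariates (lmFit, eBayes, two-sided), and p-values were adjusted over all 8540 features after Benjamini and Hochberg, with a threshold of 0.05. The methods name SAM on cubic spline values, which was not run; its thresholds were an alternative. Each array held 1 animal, and the number of arrays limits the precision.

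Genes were named by rule: every member past the threshold (the 5 with the smallest p if none had passed), the 5 members of highest and the 5 of lowest mean signal, the -like copies and Fau, members with probes past the threshold among probes of opposite sign (there were 0), and up to 4 genes past the threshold of each other list by size of change. Further members, among them Rpl34, Rpl22, Rpl9, Rpl27, Rps25, Rps6 and Rps7, were named outside this rule with their values known. The members and the lists were chosen with earlier results of these data known. The lists were mitochondrial ribosomal proteins, assembly factors, RNA polymerase I, initiation, elongation and termination factors, other TOP mRNAs, aminoacyl-tRNA synthetases, mTORC1 and translation control, p53 targets, and markers of hepatocytes, Kupffer, endothelial, stellate, cholangiocyte, lymphocyte, erythroid and dividing cells. No list was tested as a set. The test was checked on simulated data, with changes given to features drawn from all those tested. Of simulated log2 changes of 0.25 it recovered 2%, of 0.5 it recovered 42% and of 1 it recovered 94%. Genes that did not pass may therefore still differ by small amounts.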

Additional observations from a re-analysis of the deposited data

Results flagged for a closer look

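In 2 of the 110 groups of 4 livers formed by the 55 detected ribosomal protein genes, 1 liver stood far from the other 3, by more than Dixon's 95% critical value for 4 samples. Chance marks about 1 in 20 groups. Rpl36a, a 60S protein, had a log2 signal of 10.13 in TgC6hp55 liver 4, the lowest of its group, and the nearest other TgC6hp55 liver was at 10.47. Rpl24, another 60S protein, had a log2 signal of 10.53 in wt liver 2, the lowest of its group, and the nearest other wt liver was at 10.94. Neither gene passed the test between the groups.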

How the results depend on the processing

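There were 21 alternatives, of which 8 left out a liver and 1, median scaling over the detected probes, was chosen after seeing the data. With median scaling over all probes, 332 features and 0 ribosomal protein genes passed, and the median log2 fold change was -0.25 over the ribosomal protein genes, -0.25 over the 60S genes and -0.25 over the 40S genes. The median over all features was then -0.06. With median scaling over the detected probes, 884 features passed, and 4.82% of all features were lower. There 6 ribosomal protein genes passed, 3 of them of the 40S subunit, and the medians were -0.22, -0.22 and -0.21. The unpaired t-test gave 590 features, 1 gene of the 60S subunit and 2 of the 40S subunit, where 3.13% of all features were lower. A fold over 1.7 with an FDR under 1% on the authors' values gave 256 features and 0 ribosomal protein genes, where 1.17% of all features were lower. With a variance trend and robust estimation 3 of the 55 members fell, 1 of them of the 40S subunit, where 4.78% of all features were lower. Leaving out each liver in turn gave 612 to 909 features (612 without wt liver 2). Then 2.97% (without wt liver 2) to 4.26% (without TgC6hp55 liver 4) of all features were lower. The count of ribosomal protein genes was 1 to 2, all of the 60S subunit. The count was 1 without TgC6hp55 liver 1, 2 or 3 or wt liver 2, 3 or 4, and 2 without TgC6hp55 liver 4 or wt liver 1. The cause of the differences between alternatives was not tested. Under these alternatives 0 called results reversed in direction. Rpl12 passed in 19 of the 21 alternatives and Rpl28 in 11. The replicate number as a block gave 912 features and 1 ribosomal protein gene, Rpl12, where 4.34% of all features were lower. The numbers were not taken as pairs in the main fit. Deviations of same-numbered livers correlated at 0.16, 0.12, 0.01 and 0.11, all low. For TgC6hp55 livers 1, 2 and 4 the same-numbered wt liver still correlated best, and livers of unlike number correlated at -0.17 to 0.08. TgC6hp55 liver 3 correlated at 0.011 with wt liver 3 and at 0.013 with wt liver 4. What livers of the same number share was not tested. Of 1740 further comparisons of lists and named genes, 112 lost the threshold, 98 moved and 1530 did neither. Those that did neither include fold changes near 0 that changed sign without passing. Signals near background limit Rplp0, Rps15a and Rpl21, and nothing was learnt of the 10 undetected genes.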
